A study of Homo sapiens with 6 samples.

Results

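The UGT1A genes of chromosome 2 were examined in HCT116 cells, a human colorectal carcinoma line, with and without METTL3, the enzyme that writes N6-methyladenosine (m6A) on RNA. The 9 members, UGT1A1, UGT1A3, UGT1A4, UGT1A5, UGT1A6, UGT1A7, UGT1A8, UGT1A9 and UGT1A10, are all rows with these symbols among the 56638 gene symbols counted in each sample. They were chosen by the METTL3-KO against WT contrast itself, in which UGT1A6 was among the genes that fell most, so all changes of these 9 genes are given as a description without a test. RNA-seq was done on 3 WT and 3 METTL3-KO samples, all HCT116 cells of passage 16-19 grown in McCoy's 5a medium with fetal bovine serum. The labels give the METTL3-KO cells as a knockout, whereas the deposited files tag the WT samples NC and the METTL3-KO samples SiM3. No source used here explains these tags. In other experiments the study treated HCT116 cells with control siRNA or METTL3 siRNA, and whether the tags refer to such a knockdown is not stated. The groups follow the labels. By the labels, the METTL3-KO cells were made with CRISPR/Cas9 and, according to the methods of the study, are a puromycin-selected line grown from a single clone, so the effect of METTL3 loss and the properties of that clone cannot be told apart. No source says that the replicates came from separate cultures, and p-values below therefore measure the spread between these samples, which may be technical.

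UDP-glucuronosyltransferases of the UGT1A family sit in the membrane of the endoplasmic reticulum and attach glucuronic acid, taken from UDP-glucuronate, to bilirubin, hormones, dietary compounds and drugs, which makes them water soluble for excretion. The locus is built so that each gene has its own promoter and its own first exon, which encodes the part of the enzyme that binds the substrate, while the remaining exons, which encode the part that binds UDP-glucuronate, are common to all members. UGT1A1 conjugates bilirubin and, with UGT1A3, UGT1A4, UGT1A6 and UGT1A9, is known from the liver. UGT1A7, UGT1A8 and UGT1A10 are known as extrahepatic enzymes of the gut.

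In the GRCh37 annotation (the build of the files, hg19), the locus spans chr2:234526279-234681946 on the plus strand, 155.668 kb in all. From upstream to downstream, the first exons come in the order UGT1A8, UGT1A10, UGT1A9, UGT1A7, UGT1A6, UGT1A5, UGT1A4, UGT1A3 and UGT1A1, and each is 882 to 976 bases long. All 9 genes share exons 2 to 5 of 132, 88, 220 and 1039 bases, together 1479 bases that hold the end of the coding sequence and the 3'UTR. The authors counted read pairs in union mode, which sets aside as ambiguous every pair that touches more than 1 gene. The counts therefore came from the bases that a gene has to itself, which are 930 of 2409 exonic bases in UGT1A8, 930 of 3158 in UGT1A10, 1818 of 5156 in UGT1A6 and 2512 of 4205 in UGT1A7. By this annotation, fragments of the common exons were not part of any value below. The release the authors counted with is another one, and its shared bases were not checked. In UGT1A6, 572 of the 976 bases of the first exon are free of other annotated genes.

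Because the first exon is what identifies each gene, its sequence is shown for the 4 genes with sizeable counts, for UGT1A9 as a member of the same group with almost no counts, and for the exon that follows them all. Each sequence is the first 30 coding bases on GRCh37, 5′ to 3′, and the last is the first 30 bases of exon 2. In UGT1A8, UGT1A9 and UGT1A7, capitals mark the bases that differ from UGT1A10.

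UGT1A10 (chr2:234545169-234545198): atggctcgcgcagggtggaccagccccgtt

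UGT1A8 (chr2:234526354-234526383): atggctcgcAcagggtggaccagccccAtt

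UGT1A9 (chr2:234580581-234580610): atggctTgcAcagggtggaccagccccCtt

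UGT1A7 (chr2:234590584-234590613): atggctcgTgcagggtggacTGgccTcCtt

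UGT1A6 (chr2:234601651-234601680): atggcctgcctccttcgctcatttcagaga

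Exon 2, all genes (chr2:234675680-234675709): gaatttgaagcctacattaatgcttctgga

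Over these 30 bases, UGT1A8 differed from UGT1A10 at 2 positions, UGT1A9 at 3 and UGT1A7 at 5. Over the aligned first exons, UGT1A8 and UGT1A10 were 94.4% identical and their longest identical stretch was 130 bases. UGT1A8 and UGT1A9 shared a stretch of 138 bases. The UGT1A6 first exon stood apart, with 56.2% identity to that of UGT1A10. No run of 150 bases, the length of 1 read, occurred in more than 1 of the 9 first exons without a mismatch. How the aligner placed reads with mismatches among UGT1A7, UGT1A8, UGT1A9 and UGT1A10 was not tested, so the division of counts among these paralogs is uncertain.

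The samples held 20936091 to 30142144 gene counts each, and 3 counts, the most that a count of 0 allows, correspond to 0.0995 to 0.143 per 1000000 of these unscaled totals. All CPM values (counts per 1000000) are from TMM-scaled totals. METTL3 was at 30.6, 30.2 and 29.2 CPM in WT and at 7.26, 7.69 and 6.89 CPM in METTL3-KO samples (log2 fold change -2.04, adjusted p = 1.58e-07 by the quasi-likelihood test of edgeR, Benjamini-Hochberg over 22452 genes). This fall has the direction that the labels give, but it cannot tell a knockout from a knockdown by siRNA. The replicates 3 stood apart: WT replicate 3 differed from its 2 group mates by a chi-square over genes of 20.8 and 20.7 per gene, METTL3-KO replicate 3 by 10.1 and 7.61, and the pairs of replicates 1 and 2 by 2.44 and 2.23. Values without both replicates 3 are therefore given beside the results below whose calls, counts or sizes they change most. The replicates 3 deviated from their groups in opposite directions (correlation -0.662 over genes). Without them, the remaining WT and METTL3-KO samples therefore also differ along this deviation, which cannot be told apart from the group. All 5 epithelial markers exceeded 1 CPM, and their summed level was 5511 to 6896 CPM in WT and 7833 to 8807 CPM in METTL3-KO samples. Of the 5 hepatocyte markers, ALB was at 0 in every sample, SERPINA1 was the 1 marker with a mean over 1 CPM across the 6 samples, and TTR was at 0.398 to 0.844 CPM in WT and 1.02 to 1.14 CPM in METTL3-KO samples. The summed level, 262 to 311 CPM in WT and 350 to 360 CPM in METTL3-KO samples, moved with the group. The 4 fibroblast markers summed to 4.92 to 6.59 CPM in WT and 8.79 to 9.86 CPM in METTL3-KO samples, with COL3A1 at 0, and the leukocyte and endothelial markers stayed under 1 CPM with PECAM1 at 0. The part of these levels in the UGT1A values was not tested.

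UGT1A10 and UGT1A8 dominated the locus in WT cells, followed by UGT1A6 and UGT1A7, and the 5 other genes were at or near 0. Per kb of exonic bases that no other gene overlaps, the WT level was 146.7 ± 10.5 CPM per kb for UGT1A10 (SD, n = 3) and 42.4 ± 0.323 for UGT1A8. UGT1A6 reached 4.87 ± 0.984 and UGT1A7 1.15 ± 0.247 CPM per kb. The ranges of these 4 genes over the WT samples did not overlap. The levels of UGT1A6 and UGT1A7 depend on the length used: per kb of the first exon alone, a length chosen after the data were seen, they were 9.08 and 3.24 CPM per kb. Per kb of the 572 first-exon bases of UGT1A6 that no other gene overlaps, also chosen after the data were seen, UGT1A6 was at 15.5 CPM per kb. The order of the 4 genes was the same with each of these lengths. UGT1A4 at 0.160, UGT1A1 at 0.0540 and UGT1A9 at 0.0447 CPM per kb had overlapping ranges and cannot be ordered.

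UGT1A10, which conjugates phenols and oestrogens in the gut epithelium, gave 3661, 2909 and 3144 counts in WT and 1277, 875 and 809 in METTL3-KO samples. These are 133.3, 128.7 and 147.4 CPM against 42.4, 39.8 and 34.4 CPM, and all METTL3-KO values lay below all WT values. On the log2 scale UGT1A10 was 1.81 lower in METTL3-KO cells (log2 fold change -1.81, SE 0.0933), which left 28.5% of its WT level. Without both replicates 3 the log2 fold change was -1.67. In these bulk samples, fewer cells with UGT1A10 transcripts and fewer transcripts per cell cannot be told apart, here and for the genes that follow.

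UGT1A8, another gut enzyme and the closest relative of UGT1A10 by first exon, gave 1088, 893 and 833 counts in WT and 529, 386 and 390 counts in METTL3-KO samples. In CPM, the WT samples were nearly level at 39.6, 39.5 and 39.1, and the METTL3-KO samples at 17.5, 17.6 and 16.6. The log2 fold change was -1.19 (SE 0.0779), with 43.7% of the WT level left, the smallest drop among the 4 genes.

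UGT1A6, which conjugates small planar phenols and serotonin, had 216, 176 and 233 counts in WT samples and 44, 37 and 41 in METTL3-KO samples. Its 3 WT values were 7.87, 7.78 and 10.9 CPM, with replicate 3 the highest, and its METTL3-KO values were 1.46, 1.68 and 1.74 CPM. The log2 fold change was -2.44 (SE 0.179), the lowest among the 4 genes, with 18.4% left.

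UGT1A7, known from the upper digestive tract and the airways, had 70, 57 and 77 counts in WT and 22, 20 and 24 in METTL3-KO samples. In CPM this was 2.55, 2.52 and 3.61 against 0.730, 0.910 and 1.02, again with the highest WT value in replicate 3 and no overlap between groups. The log2 fold change was -1.71 (SE 0.232) and 30.7% remained, a value that lay between those of UGT1A10 and UGT1A8 but within 1 SE of that of UGT1A10.

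**Figure D1:**
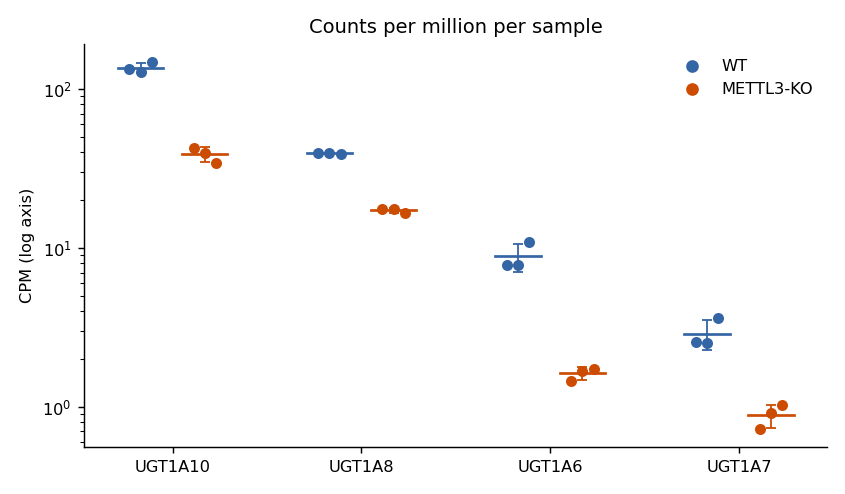
CPM of the 4 abundant UGT1A genes in each sample on a log axis, with WT in blue and METTL3-KO in orange; points are samples, horizontal lines group means and bars the SD of 3 samples. In each of the 4 genes the 3 METTL3-KO points lie below the 3 WT points, and UGT1A6 has the widest gap.

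The remaining 5 genes were too low to describe a change. UGT1A1, the bilirubin enzyme, had 1, 2 and 5 counts in WT and 3, 0 and 1 in METTL3-KO samples. UGT1A4, which conjugates amines, had 1, 1 and 8 counts in WT samples, of which replicate 3 held the most, and 0, 0 and 2 in METTL3-KO samples. UGT1A9, a phenol-conjugating enzyme of liver and kidney, had 2, 0 and 1 counts against 1, 0 and 3. UGT1A3 and UGT1A5 were at 0 in all 6 samples. UGT1A9 was thus hardly detectable at this depth, while its first exon lies between those of UGT1A10 and UGT1A7 and is 91.8% and 92.0% identical to them.

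Of the 9 genes, 6 passed the minimum of 5 counts in at least 1 group, and of these UGT1A1 and UGT1A4 passed only through their WT samples. With an adjusted p under 0.05 as the call, 4 of the 9 genes were lower and 0 higher, beside 13.2% of all tested genes called lower and 13.3% called higher. Nothing is read from the 4 of 9, because this contrast chose the genes.

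Summed over the locus, the counts were 5039, 4038 and 4301 in WT and 1876, 1318 and 1270 in METTL3-KO samples. This corresponded to 187.9 ± 12.1 CPM in WT and 58.7 ± 4.25 CPM in METTL3-KO cells (SD, n = 3), so that 31.3% remained. The log2 fold change of the sum was -1.68 (SE 0.0826) and became -1.57 without both replicates 3. The 4 abundant genes held at least 99.5% of this sum in every sample.

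The make-up of the locus differed between the groups, since the 4 genes fell by unequal amounts. UGT1A10 supplied 72.6 ± 0.532% of the UGT1A counts in WT and 66.1 ± 2.20% in METTL3-KO samples. UGT1A8 supplied 21.0 ± 1.46% and 29.4 ± 1.26%. UGT1A6 accounted for 4.69 ± 0.633% and 2.79 ± 0.442%, and UGT1A7 for 1.53 ± 0.225% and 1.53 ± 0.359%. The ratio of UGT1A8 to UGT1A10 counts, which does not depend on library size, was 0.297, 0.307 and 0.265 in WT samples. In METTL3-KO samples it was 0.414, 0.441 and 0.482, above all WT values. The ratio of UGT1A6 to UGT1A10 went the other way, from 0.0590, 0.0605 and 0.0741 in WT to 0.0345, 0.0423 and 0.0507 in METTL3-KO samples. UGT1A7 against UGT1A10 overlapped between the groups, with ratios of 0.0191 to 0.0245 in WT and 0.0172 to 0.0297 in METTL3-KO samples. In all 13 fits, which varied the normalization, the filter, the tool, the block and the samples left out, UGT1A6 had the lowest and UGT1A8 the highest log2 fold change of the 4 genes. UGT1A10 was below UGT1A7 in 12 of the 13, the exception being the fit without METTL3-KO replicate 3. These fits reuse the same samples, and the fall of UGT1A6 in this contrast was part of the choice of the locus. The order is therefore a description, and the agreement of the fits is no support for it.

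**Figure D2:**
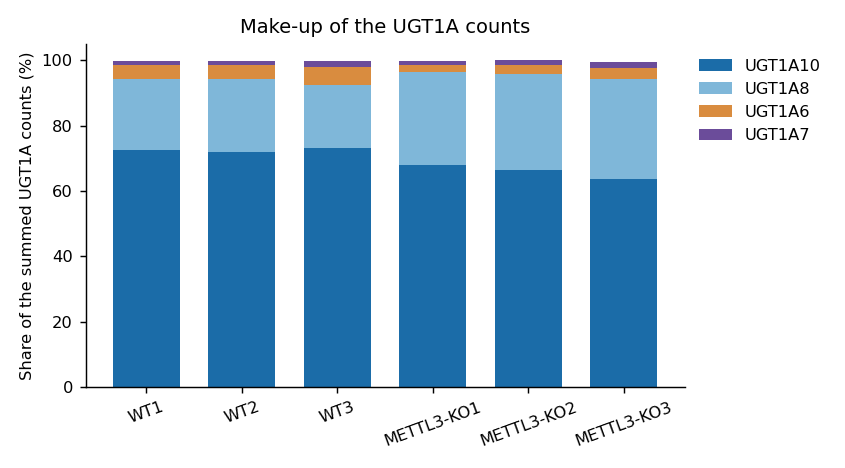
Share of the summed UGT1A counts taken by each of the 4 abundant genes, in percent, with 1 bar per sample. The UGT1A8 part of the bar is larger and the UGT1A10 and UGT1A6 parts are smaller in each METTL3-KO sample than in each WT sample.

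The 5 genes outside the locus whose profile lay nearest to that of the summed UGT1A counts were MSN, CD200, ERMP1, ZNF548 and SMPD1. Likeness was the Euclidean distance between log2 CPM profiles centred over the 6 samples, taken among 13266 genes. MSN, which encodes moesin, a linker of actin to the cell membrane, was nearest with a distance of 0.108, and CD200 followed with 0.240. The levels of MSN were 509.9, 525.6 and 556.8 CPM in WT and 177.9, 179.1 and 161.0 CPM in METTL3-KO samples, so that replicate 3 was the highest WT and the lowest METTL3-KO sample, as in the UGT1A sum. These 5 genes were picked for this resemblance and their changes are not tested here.

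Genes around the locus did not move as 1 block with it. Within 500 kb of either end or inside it, 29 other genes are annotated, of which 15 have a count row of their own and 12 were tested. Pseudogenes named UGT1A are left out of these numbers. By edgeR with p-values adjusted over all genes, 4 of the 12 were lower and 2 higher, beside 13.2% and 13.3% of all genes tested. MROH2A, which begins 2.379 kb after the last UGT1A exon on the same strand, gave 38, 59 and 35 counts in WT and 12, 15 and 10 counts in METTL3-KO samples (log2 fold change -1.91, SE 0.331, adjusted p = 0.00115). DNAJB3, a processed pseudogene on the minus strand within the introns of the UGT1A genes, gave 16, 9 and 26 counts against 5, 4 and 4 (log2 fold change -2.04, SE 0.512, adjusted p = 0.0113, and -1.50 without both replicates 3). The sources used here do not say whether counting used the strand, so reads of DNAJB3 and of unspliced UGT1A transcripts cannot be told apart. RPL17P11, another pseudogene inside the locus, had at most 7 counts in any sample and was not called. The UGT1A pseudogenes with a count row, UGT1A2P, UGT1A11P, UGT1A12P and UGT1A13P, were not called either, with log2 fold changes of -2.03, -4.99, -4.64 and -0.98. Their counts were at most 29 in any sample, that of UGT1A2P in WT replicate 3. UGT1A11P had counts in WT replicate 2 alone and UGT1A12P in WT replicate 1 alone. The missing calls therefore do not show that these pseudogenes were level. HJURP, a centromere histone chaperone 60.1 kb downstream, went down (log2 fold change -0.56, SE 0.0711, adjusted p = 0.000138), less than any of the 4 UGT1A genes. MSL3P1, 92.1 kb downstream, was level between the groups to within its error (log2 fold change -0.02, SE 0.0771, adjusted p = 0.866). USP40, a deubiquitinase gene and the nearest upstream gene with a count row at 50.9 kb, rose from 51.9 to 85.9 CPM (log2 fold change 0.73, SE 0.0770, adjusted p = 3.99e-05). Farther upstream, INPP5D was lower (log2 fold change -0.42, adjusted p = 0.00226) and DGKD higher (log2 fold change 0.28, adjusted p = 0.0244), and the call for DGKD held in 2 of the 6 fits that left out 1 sample.

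Outside the locus, 7 lists totalling 84 genes were described, many of which are not glucuronidation genes. They cover other UGT enzymes, donor supply, glucuronide hydrolysis and transport, transcription factors, genes that respond to the receptor AHR, heme breakdown and 28 other conjugating enzymes. Of the 84 genes, 74 were tested, 10 were lower and 20 were higher, beside the 13.2% and 13.3% of all genes. Without both replicates 3, 25 of 71 listed genes tested were lower and 22 higher, beside 4823 lower and 4555 higher of all 21242 genes tested. These numbers of all genes also stand beside the counts per list in that fit below. Of 13 UGT2, UGT3 and UGT8 genes, 8 were tested, 3 were higher and 1 was lower by edgeR, against 1 higher and 1 lower with DESeq2. The median log2 fold change was 1.20, against -0.02 over all genes tested. UGT2B4, UGT2B10, UGT2B11 and UGT2B28 passed the minimum of 5 counts only through their METTL3-KO samples, which favours positive values. Nothing is therefore read from this median. UGT2B15, a steroid-conjugating enzyme, had 9, 4 and 5 counts in WT and 38, 26 and 38 in METTL3-KO samples (log2 fold change 2.40, adjusted p = 0.000248 by edgeR). UGT2B7 rose from 0.442 to 0.916 CPM (adjusted p = 0.0249 by edgeR), a call that held in 2 of the 6 fits without 1 sample and was lost with DESeq2 (adjusted p = 0.0689). UGT2B11 was called higher on 0, 1 and 0 counts in WT and 6, 5 and 2 in METTL3-KO samples, also in 2 of those 6 fits. All UGT2B levels were low and these near-identical paralogs may share reads, so their values are uncertain. UGT8, the ceramide galactosyltransferase, fell from 98.1 to 63.7 CPM (log2 fold change -0.62, adjusted p = 7.01e-05 by edgeR).

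Genes listed for the supply of the sugar donor, not all of them enzymes that make it, changed little beside the UGT1A genes. Of 7 tested, 1 was lower and 1 higher, which became 4 lower and 1 higher without both replicates 3. UGDH, which oxidises UDP-glucose to UDP-glucuronate, was lower (log2 fold change -0.27, adjusted p = 0.0205 by edgeR, called in 3 of the 6 fits without 1 sample) and UGP2, which makes UDP-glucose, was higher (log2 fold change 0.35, adjusted p = 0.00872). Among 10 genes for glucuronide hydrolysis and transport, 2 were lower and 2 higher. The efflux pumps ABCC4 and ABCC3 fell by 0.85 and 0.49 on the log2 scale (adjusted p = 1.80e-05 and 0.000149 by edgeR). The uptake carrier SLCO2B1 and the efflux pump ABCG2 rose by 1.21 and 0.31 (adjusted p = 0.000646 and 0.00645). In the breakdown of heme to bilirubin, the substrate of UGT1A1, HMOX1 was lower (log2 fold change -0.32, adjusted p = 0.0321 by edgeR, called in 1 of the 6 fits) and the other 3 genes were not called. Without both replicates 3, 3 of these 4 genes were lower.

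Of 15 tested transcription factors and partners that are known to act on UGT1A promoters, 4 were higher and 1 was lower. Among all genes tested, 13.3% were higher and 13.2% lower. Without both replicates 3, 7 of the 15 were higher and 4 lower, with AHR at 0.77 and PPARA at 0.89. AHR, the receptor for aryl hydrocarbons through which UGT1A genes are induced, rose from 91.3 to 136.7 CPM (log2 fold change 0.58, adjusted p = 0.00119 by edgeR), a direction opposite to that of the UGT1A genes. Its repressor AHRR rose by 0.59 (adjusted p = 0.00161), PPARA by 0.69 (adjusted p = 0.000544) and HNF4A by 0.29 (adjusted p = 0.0199 by edgeR, called in 2 of the 6 fits without 1 sample). NFE2L2, the regulator of antioxidant genes, fell by 0.51 (adjusted p = 0.000225). ARNT, RXRA, FOXA1, CDX2 and KEAP1, also above 1 CPM, had log2 fold changes from -0.19 for CDX2 to 0.17 for RXRA and were not called. Without both replicates 3, all of these 5 passed the threshold, with CDX2 at -0.45 and ARNT at 0.26.

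A further list held genes outside the locus that are known to respond to AHR, with AHRR among them again. Of 6 tested, 4 were higher, AHRR included, and 1 lower, beside 13.3% and 13.2% of all genes tested. With a replicate block, 3 were higher and 0 lower, beside 1810 and 1719 of all 22452 genes tested. CYP1B1 gave 20.2, 17.4 and 21.5 CPM in WT and 42.9, 42.1 and 44.9 CPM in METTL3-KO samples (log2 fold change 1.14, adjusted p = 6.72e-06 by edgeR). CYP1A1 had 9, 13 and 7 counts against 39, 18 and 31 (log2 fold change 1.49, adjusted p = 0.00638). TIPARP rose by 0.31 (adjusted p = 0.00985 by edgeR, and 0.0670 with a replicate block). NQO1, which also answers to NFE2L2, fell by 0.29 (adjusted p = 0.0161 by edgeR, called in 2 of the 6 fits without 1 sample). Among 25 tested sulphotransferases, glutathione transferases and other conjugating enzymes, 7 were higher and 3 lower, with a median log2 fold change of 0.02, and without both replicates 3 the counts were 6 higher and 8 lower of 24, with a median of -0.11. SULT2B1 rose from 58.7 to 124.8 CPM and GSTZ1 from 15.4 to 29.4 CPM (adjusted p = 1.33e-05 and 4.50e-05 by edgeR). SULT1B1 had 4, 1 and 2 counts in WT and 31, 23 and 20 in METTL3-KO samples (log2 fold change 3.25, adjusted p = 0.000190). GSTA4 rose by 0.78 (adjusted p = 0.000119), whereas GSTM4, one of a set of similar paralogs, fell by 1.21 (adjusted p = 0.000835 by edgeR), with a log2 fold change of -1.51 without both replicates 3.

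**Figure D3:**
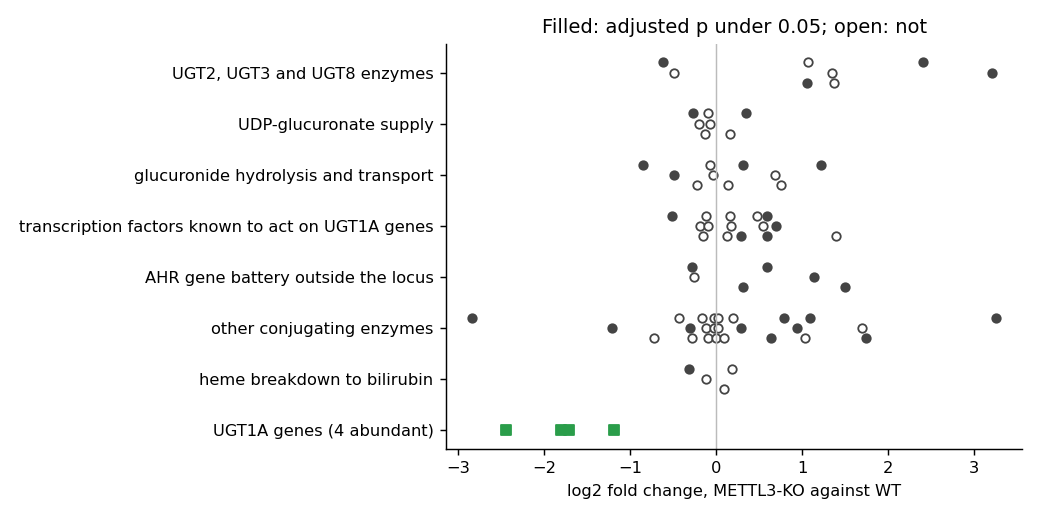
Log2 fold change of METTL3-KO against WT for each tested gene of the 7 lists, 1 point per gene, filled where the adjusted p is under 0.05, with the 4 abundant UGT1A genes as green squares. Called genes lie on both sides of 0 in 6 of the lists, and the UGT1A squares lie between -2.44 and -1.19.

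The first-exon promoters were searched for the letters of short motifs, 3 of which are reported here, in RefSeq windows on GRCh38.p14, each 300 bases long from 250 before to 50 after the annotated start. Of the 9 genes, 8 matched an entry, with 9 windows in all, since UGT1A6 has 2, and UGT1A10 had none. The windows of the homologous genes are not independent. The core of the AHR element, GCGTG on either strand, occurred for 6 of the 8 genes (UGT1A8, UGT1A9, UGT1A7, UGT1A6, UGT1A4 and UGT1A3). That was 6 of the 9 windows, beside 36.5% of 35097 promoter windows of all genes. In UGT1A6 the match lay in the upstream window (chr2:233691452-233691751), and the downstream window (chr2:233692640-233692939) had 0 matches. The matches of UGT1A8, UGT1A7 and UGT1A6, the abundant genes with a window, and of UGT1A9 are shown with the motif in capitals, written as CACGC where it lies on the other strand.

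UGT1A8 (chr2:233617595-233617624): acaggataaataCACGCcctctattggggt

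UGT1A9 (chr2:233671821-233671850): aaaggataaaaaCACGCcctctattggggt

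UGT1A7 (chr2:233681826-233681855): aatgaataagtaCACGCcttcttttgaggg

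UGT1A6 (chr2:233691490-233691519): gaacaggaactcGCGTGccagccaggtgtg

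The match of UGT1A8, the second most abundant member, and that of UGT1A9, which had at most 3 counts in any sample, thus lie in almost the same letters. TTTATG, searched as the CDX2 element, occurred for UGT1A8 and UGT1A9 and in 10.6% of all promoters. TGACNNNGC, the core of the antioxidant element, occurred for UGT1A6 and UGT1A5 and in 13.4% of all promoters. None of these 3 motifs was common to the 3 abundant genes with a window and missing from the others. These are matches of letters and say nothing of binding in these cells.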

How the data were processed

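RNA-seq counts of 3 WT and 3 METTL3-KO HCT116 samples were used, grouped by the labels. According to the methods of the study and the submitters' processing notes, the authors mapped paired reads to hg19 with TopHat 2.0.11 and an Ensembl GRCh37 index. Pairs were then assigned to genes by htseq-count (union mode), and what was deposited is the raw count of each gene symbol. Pairs touching more than 1 gene were 7.95 to 8.77% and pairs not placed uniquely 13.4 to 14.7% of the pairs.

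Genes with fewer than 5 counts in total in both groups were removed. The remaining 22452 were tested with edgeR 4.0.16 in R 4.3.3 (quasi-likelihood, TMM, two-sided, Benjamini-Hochberg), after a check on simulated data. The SE of a log2 fold change is its size over the square root of F. DESeq2 1.42.0, another normalization, other filters, a replicate block and leaving out samples were alternatives.

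The members and lists were chosen with earlier results of these data known. Named genes are the 9 UGT1A genes, METTL3, up to 5 called genes per list by p, listed transcription factors of at least 1 CPM, genes within 100 kb and called genes within 500 kb, and the 5 nearest profiles. Some listed genes that meet this rule, and a motif searched, are not reported here. Exon positions and lengths come from GENCODE on GRCh37, which is not the release the authors counted with, and promoters from RefSeq on GRCh38.p14. Intervals and limits of a count of 0 cover counting error only.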

Additional observations from a re-analysis of the deposited data

How the results depend on the processing

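The log2 fold changes of UGT1A6, UGT1A7, UGT1A8 and UGT1A10 were negative in all 12 alternatives, with ranges of -2.52 to -2.27, -1.82 to -1.53, -1.20 to -1.16 and -1.88 to -1.67. That of the summed counts ran from -1.72 to -1.62 when 1 sample was left out and moved to -1.57 without both replicates 3. The replicate numbers did not pair the samples: deviations of same-numbered samples correlated at -0.441, -0.268 and -0.662. WT replicate 3 correlated at 0.531 and 0.367 with METTL3-KO replicates 1 and 2. METTL3-KO replicate 3 correlated at 0.56 and 0.498 with WT replicates 1 and 2. WT replicate 2 with METTL3-KO replicate 1 and WT replicate 1 with METTL3-KO replicate 2 were at -0.407 and -0.32. The fit without both replicates 3 cannot tell this deviation from the group, so its larger counts are not a cleaner result. With a replicate block, 1719 genes were lower and 1810 higher in place of 2959 and 2986, and 5 listed genes were lower and 11 higher in place of 10 and 20; without both replicates 3, 4823 and 4555 genes and 25 listed lower genes were called. Leaving out 1 sample gave 1976 to 3793 lower and 2188 to 3809 higher genes, and 5 to 15 lower and 14 to 21 higher listed genes, the fewest listed lower genes (5) without METTL3-KO replicate 2, with 6 without WT replicate 1 or 2 and 15 without WT replicate 3. The cause was not tested. Per kb of all exonic bases in place of unshared ones, the WT levels of UGT1A10, UGT1A8, UGT1A6 and UGT1A7 were 43.2, 16.4, 1.72 and 0.688 CPM per kb. By the annotation used here, that length adds bases whose pairs were not counted. Per kb of the first exon alone, added after the data were seen, UGT1A6 and UGT1A7 were at 9.08 and 3.24. Per kb of first-exon bases free of other genes, also added then, they were at 15.5 and 3.24. Among the log2 fold changes of named genes, 1 changed sign, that of MSL3P1, from -0.02 to 0.02 without METTL3-KO replicate 2, and it was called in neither fit. Depth limits UGT1A1, UGT1A4 and UGT1A9, with at most 10 counts per group.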
